A study of Homo sapiens with 16 samples.

Results

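A set of 10 genes that mark the identity of a glioma cell was followed through every group of the LN229 series. They are the neural stem and glial genes SOX2, SOX4, SOX9, SOX11, NES and GFAP (6 genes) and the mesenchymal and matrix genes VIM, CD44, FN1 and CHI3L1 (4 genes). They were chosen by name, with earlier results of these data known, and were looked up by Entrez identifier among the 13559 genes of the first experiment and the 14024 genes of the second, of which 13475 are in both. Of the 10 genes, 9 had a row in both tables. CHI3L1 (identifier 1116), which encodes the secreted glycoprotein YKL-40 and is much used as a mesenchymal glioma marker, had no row in the tables used here and is not analysed here.

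LN229 is an established cell line grown from a human glioblastoma (GBM). The methods of the study state that it was not authenticated there. The first experiment held a regular culture and an ischemic culture without vehicle. The second held the same pair of cultures, each with the vehicle DMSO, with VX745, which inhibits p38α, or with MK25, which inhibits the p38 substrate kinase MK2. Regular culture was complete medium with serum, and ischemic culture combined low glucose, low glutamine and low serum with low oxygen, so the effects of these parts cannot be told apart. Each of the 8 groups had 2 libraries, 16 in all, and the labels do not say whether replicates came from separate cultures, so p-values measure only the spread between these libraries.

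Glioblastoma cells move between states that resemble neural progenitors, glial cells and mesenchymal cells. SOX2 is the central transcription factor of neural and glioma stem cells, nestin (NES) is the filament protein of neural progenitors, and GFAP is the filament protein of mature astrocytes. Vimentin (VIM), the hyaluronan receptor CD44 and fibronectin (FN1) stand for the mesenchymal state, which in tumors is often seen near necrosis and low oxygen.

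The deposited values are log2 normalized CPM (each gene's reads set against the size of its library, after scaling between libraries), and each holds a small offset that averages 2.08 reads in the first and 2 reads in the second experiment. Undoing the logarithm returned whole reads, between 20122017 and 37562668 per library on the listed genes. In the second experiment every ischemic library was deeper than every regular one except regular DMSO replicate 1. The 10 most abundant genes of each library held from 4.23% to 4.65% of the reads in regular culture and from 5.66% to 6.45% in ischemic culture. Replicates differed by more than sampling noise in all 8 groups, with a chi-square per gene from 3.29 to 9.40. Genes of other cell types were mostly low or had no row. All 6 endothelial genes, the oligodendrocyte genes MBP, MOG and MOBP and the leukocyte gene PTPRC had none, while the oligodendrocyte genes MAG and CNP, the neuronal vesicle gene SYT1 and the lysosomal gene CD68 were measured in LN229. The summed CPM of the measured neuronal genes in the second experiment ran from 43.6 to 48.3 in regular and from 85.9 to 108.3 in ischemic libraries. Their part in the results was not tested.

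In the GRCh38 annotation, SOX2 lies on chromosome 3 from 181711925 to 181714436, SOX4 on chromosome 6 from 21593751 to 21598619 and SOX11 on chromosome 2 from 5692384 to 5701385, each as a gene of 1 exon. SOX9 lies on chromosome 17 from 72121020 to 72126416 with 3 exons, and GFAP on the same chromosome from 44903159 to 44915500 with 9 exons. NES lies on chromosome 1 from 156668763 to 156677407 with 4 exons. VIM lies on chromosome 10 from 17228241 to 17237593 with 10 exons, CD44 on chromosome 11 from 35139171 to 35232402 with 18 exons, and FN1 on chromosome 2 from 215360865 to 215436068 with 46 exons. Exons are those of the MANE Select transcript. The library kits do not mark strand, so reads of a gene cannot be told apart from those of another gene that overlaps it. SOX2 lies inside the noncoding gene SOX2-OT, VIM overlaps VIM-AS1, GFAP overlaps DNAAF19 and FAM187A, FN1 overlaps ATIC and FN1-DT, and CD44 overlaps CD44-AS1 and SNORD164.

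Promoters are shown for the pair of genes that fell most among the abundant neural genes (SOX2 and NES). They are also shown for the pair of mesenchymal genes that rose most (VIM and FN1), since the data compare their RNA. Each runs 5′ to 3′ on the strand of the gene over 300 bases, from 250 before to 50 after the start (RefSeq, GRCh38.p14). They are chr3:181711675-181711974 on the plus strand, chr1:156677358-156677657 on the minus strand, chr10:17227991-17228290 on the plus strand and chr2:215436019-215436318 on the minus strand. Capitals mark matches on either strand to the motifs searched.
SOX2: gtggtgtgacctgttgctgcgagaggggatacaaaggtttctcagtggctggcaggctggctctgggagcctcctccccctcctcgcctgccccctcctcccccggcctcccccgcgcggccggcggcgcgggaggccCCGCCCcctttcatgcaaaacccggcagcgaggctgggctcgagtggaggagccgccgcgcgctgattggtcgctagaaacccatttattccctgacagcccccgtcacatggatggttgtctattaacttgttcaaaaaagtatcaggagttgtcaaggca
NES: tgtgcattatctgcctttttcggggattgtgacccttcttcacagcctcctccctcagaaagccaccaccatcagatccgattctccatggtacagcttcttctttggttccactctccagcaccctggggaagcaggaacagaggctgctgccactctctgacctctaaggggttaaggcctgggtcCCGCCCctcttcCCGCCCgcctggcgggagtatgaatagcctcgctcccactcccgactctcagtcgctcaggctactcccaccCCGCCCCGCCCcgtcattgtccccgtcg
VIM: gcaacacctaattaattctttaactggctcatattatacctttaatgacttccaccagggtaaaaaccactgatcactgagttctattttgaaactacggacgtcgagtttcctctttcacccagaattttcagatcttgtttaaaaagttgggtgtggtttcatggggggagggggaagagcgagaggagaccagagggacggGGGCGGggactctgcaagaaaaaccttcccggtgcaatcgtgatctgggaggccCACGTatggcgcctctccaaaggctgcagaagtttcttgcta
FN1: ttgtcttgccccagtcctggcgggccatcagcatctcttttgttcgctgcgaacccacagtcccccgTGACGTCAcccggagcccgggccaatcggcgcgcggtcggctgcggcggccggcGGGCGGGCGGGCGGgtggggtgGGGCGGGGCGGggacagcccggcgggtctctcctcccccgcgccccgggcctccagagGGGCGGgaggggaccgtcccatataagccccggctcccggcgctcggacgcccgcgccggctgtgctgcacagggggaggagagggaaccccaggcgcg
The motifs searched on both strands were the hypoxia-inducible factor core ACGTG and its form GCGTG, the AP-1 site TGANTCA, the cyclic AMP element TGACGTCA, the ATF4 composite element TGATGNAA, the GC box GGGCGG and the TATA box TATAAA. Among the 6 members with a promoter entry and a row (NES, VIM, CD44, FN1, SOX2 and SOX4), ACGTG was found in VIM at position 9 after the start and in CD44 at position -215, against 21.4% of all 35116 promoters. The FN1 promoter holds TGACGTCA at position -183, which 1.85% of all promoters hold. GC boxes were found in 5 of the 6, all but SOX4, against 45.0% of promoters, and GCGTG in SOX4 alone, against 36.5%. TGANTCA, TGATGNAA and TATAAA, held by 7.71%, 3.62% and 11.5% of promoters, were not in these windows. A match is a string of letters and no evidence of binding.

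The level of each gene was first compared with the others as RPKM. This is its share of the library's reads on the listed genes, divided by the kilobases of the longest protein-coding transcript. Unlike the log2 values, RPKM was not scaled between libraries. It serves to order genes within a group, and its changes between groups can differ from the log2 fold changes. CD44 without vehicle had a mean of 160.6 RPKM in regular and 146.0 in ischemic cells, against log2 means of 9.66 and 9.69. In regular DMSO cells VIM was highest at 1118 ± 80.7 RPKM (SD, n = 2), followed by FN1 at 528.1 ± 34.0. NES (176.0 ± 1.54) and CD44 (152.5 ± 6.07) were next, with ranges that did not overlap. SOX2 stood at 25.4 ± 0.12, the highest of the 4 SOX genes in the set. SOX4 (4.32 ± 0.075) and SOX11 (2.89 ± 0.033) were lower, and GFAP (0.248 ± 0.075) and SOX9 (0.133 ± 0.058) were lowest. SOX10, which is outside the set, had 14125 to 31528 reads per library in the second experiment. SOX2 had 292 to 1938 there, with neither number corrected for length. FN1 ranked from 2 to 6 and VIM from 3 to 18 among all genes of a library, so LN229 carried very abundant mesenchymal transcripts in regular culture also. GFAP, the defining filament of astrocytes, had between 21 and 55 reads in every library.

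The order changed in 2 places under ischemia. In ischemic DMSO cells CD44 (162.6 ± 0.40 RPKM) stood above NES (72.4 ± 1.72), and SOX9 (0.822 ± 0.24) above GFAP (0.162 ± 0.064). Both exchanges were present in each of the 4 ischemic groups, and the NES and CD44 exchange also in regular MK25 (160.2 ± 5.12 for CD44 and 147.4 ± 7.22 for NES). SOX4 and SOX11 were the only neighbours whose libraries overlapped, in ischemic cells without vehicle, where SOX11 had 2.24 ± 0.26 and SOX4 2.12 ± 0.22 RPKM. The values of CD44 and FN1 depend on the transcript length taken, since these genes are spliced into many forms.

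**Figure D1:**
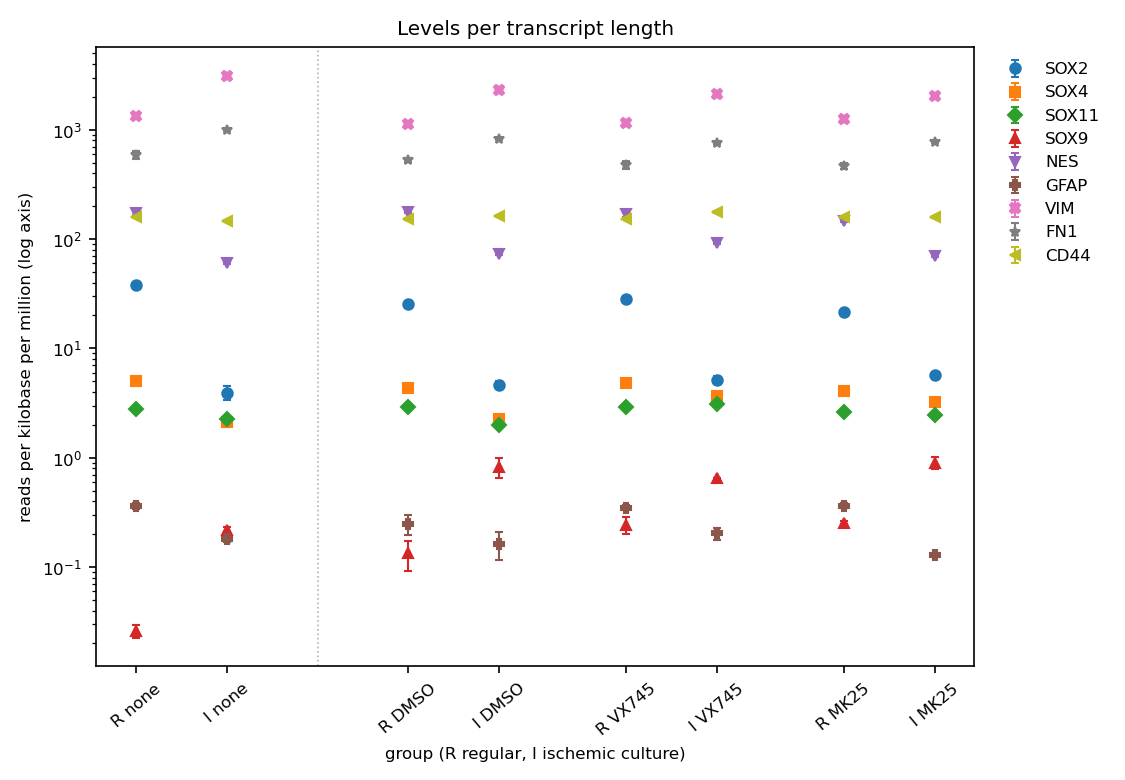
Mean level of the 9 measured genes in each of the 8 groups, in RPKM on a log axis, with bars from the lower to the higher of the 2 libraries and a dotted line between the experiments. VIM and FN1 lie on top in every group, NES drops below CD44 in the ischemic groups and SOX9 rises above GFAP there.

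SOX2 showed the largest fall of the 9 genes. Its log2 normalized CPM was 6.48 and 6.47 in regular replicates 1 and 2 and 3.13 and 3.59 in ischemic replicates 1 and 2 without vehicle, or 2194 and 2486 reads against 239 and 254. In the second experiment it was 5.95 and 5.91 in regular DMSO, 6.07 in both libraries of regular VX745, and 5.59 and 5.76 in regular MK25. The ischemic values were 3.58 and 3.83 with DMSO, 3.85 and 3.60 with VX745, and 3.83 and 3.93 with MK25. Every ischemic library lay more than 1.5 below every regular library of its experiment, with no overlap. The log2 fold change was -3.11 (95% interval -3.39 to -2.84, adjusted p = 6.85e-10 from limma over all genes) without vehicle, -2.23 (-2.43 to -2.03) with DMSO, -2.35 (-2.55 to -2.14) with VX745 and -1.79 (-1.99 to -1.59) with MK25.

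SOX2-OT, the noncoding gene in which SOX2 sits, moved with it. It had 4.26 and 4.23 in regular and 1.24 and 1.29 in ischemic cells without vehicle, and 3.99 and 3.96 in regular against 1.5 and 1.99 in ischemic DMSO cells. Its log2 fold change in ischemia was -2.98 without vehicle (SE 0.14) and -2.23 with DMSO (SE 0.15), against -3.11 and -2.23 for SOX2. Its highest read number was 523, against 2486 for SOX2. How reads on the shared bases were assigned is not given in the sources used here.

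SOX4, a progenitor SOX factor that acts in TGF-β signaling, also fell. It was 4.42 and 4.59 in regular and 3.31 and 3.55 in ischemic cells without vehicle, and 4.32 and 4.34 in regular against 3.60 and 3.64 in ischemic cells with DMSO. These groups did not overlap, and the log2 fold changes were -1.07 (SE 0.12) and -0.71 (SE 0.09). With an inhibitor the gap was smaller. Regular VX745 cells had 4.48 and 4.49 and ischemic VX745 cells 4.18 and 4.24, a log2 fold change of -0.27 (adjusted p = 0.0117, or 0.0784 without ischemic VX745 replicate 1). Regular MK25 cells had 4.15 and 4.34 and ischemic MK25 cells 3.93 and 4.09, a log2 fold change of -0.24 (adjusted p = 0.0247). That last call was lost without regular MK25 replicate 2 (adjusted p = 0.242), without ischemic MK25 replicate 1 (0.212) and when only these groups were fitted (0.0544).

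SOX11, the close relative of SOX4 in the SoxC subfamily, changed much less. Its values were 4.49 and 4.60 in regular and 4.49 and 4.29 in ischemic cells without vehicle, which overlapped, a log2 fold change of -0.15 (adjusted p = 0.21, or 0.0446 without ischemic replicate 1). With DMSO it fell from 4.64 in both regular libraries to 4.23 and 4.40 in the ischemic ones, a log2 fold change of -0.32 (adjusted p = 0.00204). With VX745 the ischemic libraries (4.89 and 4.77) lay above the regular ones (4.59 and 4.70), but the log2 fold change of 0.18 did not pass (adjusted p = 0.0584, or 0.049 without regular VX745 replicate 2). With MK25 the values were 4.46 and 4.55 in regular and 4.48 and 4.49 in ischemic cells, and the interval of the difference ran from -0.19 to 0.15.

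SOX9, a factor of glial specification, went the other way from a level near the floor of detection, taken as 3 reads. Regular cells without vehicle had 2 and 3 reads and ischemic cells 26 and 18 reads, a ratio of 9.51 (exact 95% interval 3.78 to 30.7 for counting error only). In the second experiment regular DMSO cells had 11 and 16 reads (-1.25 and -0.48 on the log2 scale) and ischemic DMSO cells 70 and 128 reads (1.55 and 2.15). All ischemic libraries of an experiment lay above all of its regular libraries. The log2 fold change was 2.71 with DMSO (SE 0.29, adjusted p = 2.55e-07), 1.49 with VX745 and 1.82 with MK25 (SE 0.29 each), and these values understate the change of so low a gene because of the offset. Regular VX745 cells (27 and 17 reads) and regular MK25 cells (21 and 21 reads) had more than the regular DMSO pair.

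NES fell in all 4 comparisons. It had 9.75 and 9.87 in regular and 8.40 and 8.49 in ischemic cells without vehicle, and 9.87 and 9.86 in regular against 8.78 and 8.84 in ischemic DMSO cells. The log2 fold changes were -1.36 (95% interval -1.52 to -1.21) and -1.06 (-1.19 to -0.93), folds of 2.58 and 2.08. With VX745 it was 9.72 and 9.90 in regular and 9.07 and 9.01 in ischemic cells, and with MK25 9.57 and 9.66 in regular and 8.60 and 8.67 in ischemic cells. Every ischemic library was below every regular library of its experiment, and the log2 fold changes were -0.77 (SE 0.06) and -0.98 (SE 0.06).

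GFAP was low throughout and its libraries were scattered. Without vehicle it was 0.87 and 1.03 in regular and 0.23 and 0.10 in ischemic cells, a log2 fold change of -0.79 (adjusted p = 0.0157) that lost its call without regular replicate 1 (adjusted p = 0.0604) or regular replicate 2 (0.116). With DMSO it was 0.73 and 0.12 in regular and 0.41 and -0.35 in ischemic cells, which overlapped (log2 fold change -0.39, 95% interval -1.03 to 0.25). With VX745 (0.98 and 0.85 against 0.11 and 0.44) the difference of -0.64 did not pass (adjusted p = 0.0728), and it passed when only these groups were fitted (0.0317), with quantile normalization (0.0269) and with voom on the reads (0.047). With MK25 the values were 0.91 and 1.06 in regular and -0.32 and -0.36 in ischemic cells, a log2 fold change of -1.32 (SE 0.30, adjusted p = 0.000953). Where both passed, in ischemia without vehicle and with MK25, GFAP was lower and SOX9 higher.

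DNAAF19, which overlaps GFAP, had up to 159 reads in a library, more than the 55 that GFAP reached. Its log2 difference in ischemia was -0.32 without vehicle (adjusted p = 0.177) and -0.11 with DMSO (adjusted p = 0.657), and with VX745 it rose by 0.77 (adjusted p = 0.0031). Against DMSO in ischemic cells it rose by 1.04 with VX745 (adjusted p = 0.00125) and by 0.74 with MK25 (adjusted p = 0.00855), where GFAP did not pass. How its reads bear on the values of GFAP was not tested.

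**Figure D2:**
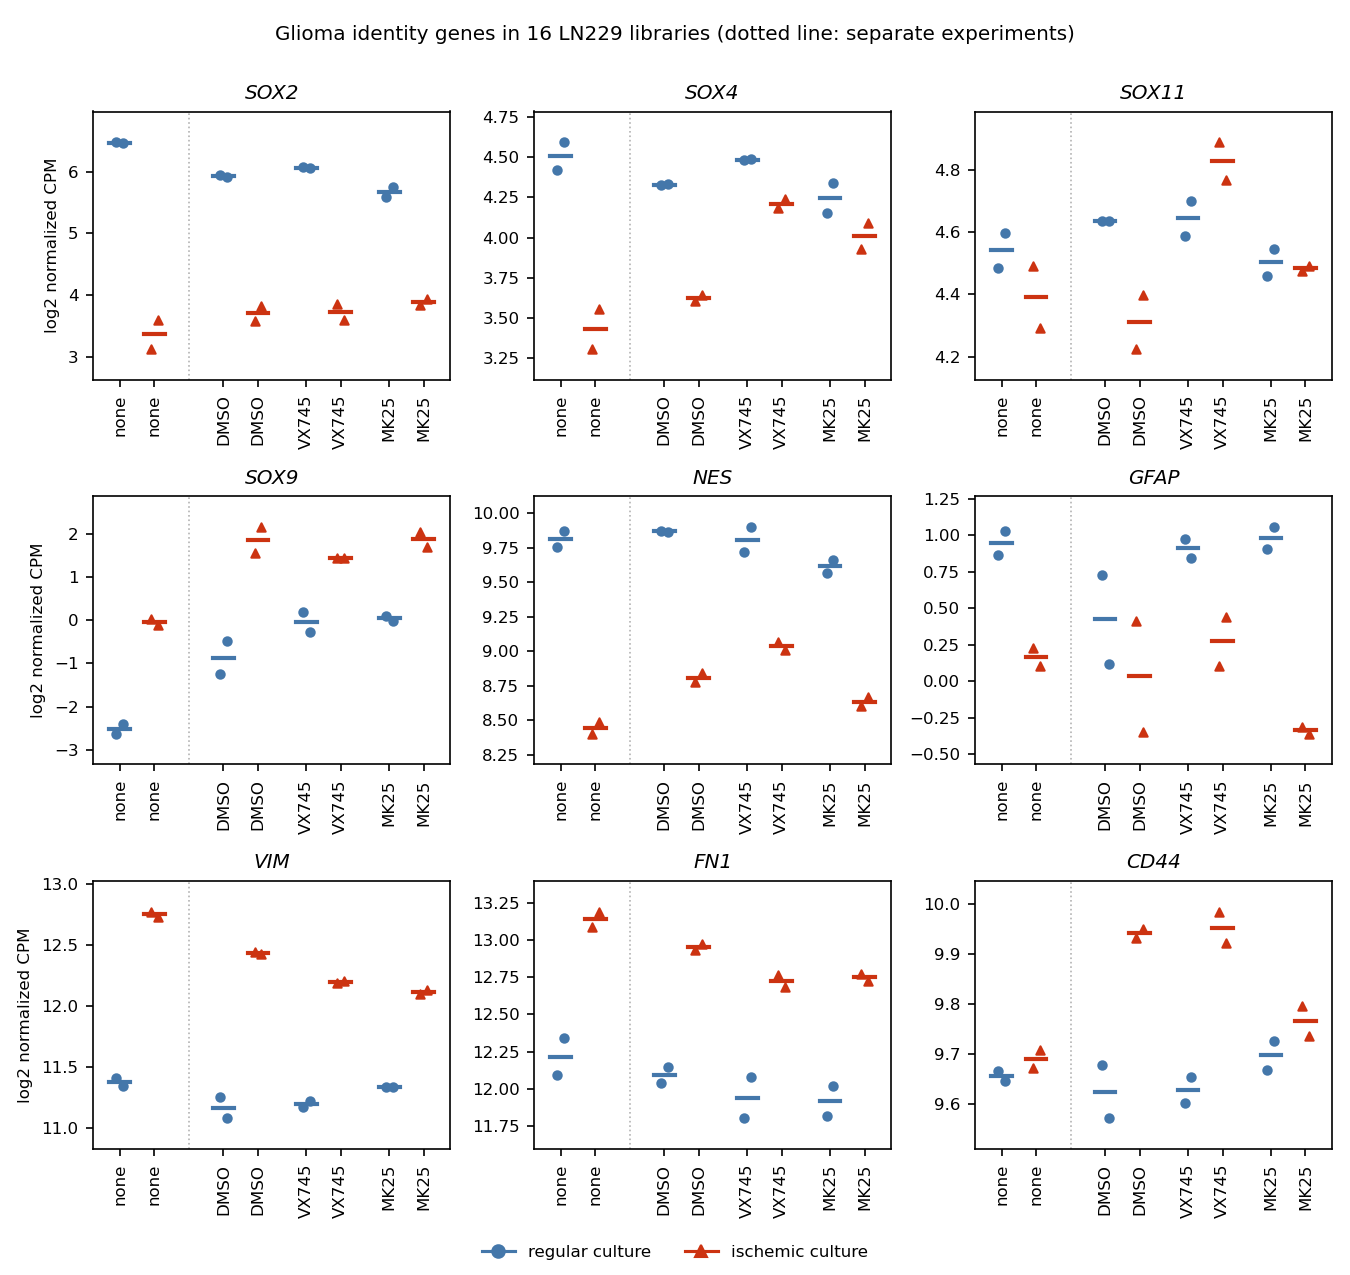
Log2 normalized CPM of the 9 measured genes in all 16 libraries, 1 panel per gene, with a line at each group mean of 2 libraries and a dotted line between the experiments, which were normalized separately. Within each treatment, ischemic libraries lie below regular ones for SOX2, SOX4 and NES and above them for SOX9, VIM and FN1, while those of CD44, SOX11 and GFAP lie close or overlap in some groups.

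VIM rose in ischemic culture. It was 11.40 and 11.34 in regular and 12.77 and 12.73 in ischemic cells without vehicle, where it held 0.28% to 0.293% of all reads in regular and 0.644% to 0.680% in ischemic cells. With DMSO it went from 11.25 and 11.08 to 12.44 and 12.43. The log2 fold changes were 1.38 (95% interval 1.20 to 1.56, adjusted p = 2.53e-08) and 1.27 (1.13 to 1.41), folds of 2.60 and 2.42. With VX745 it was 11.17 and 11.22 in regular and 12.19 and 12.21 in ischemic cells (log2 fold change 1.00), and with MK25 11.33 and 11.34 against 12.10 and 12.13 (0.78, SE 0.07 each). No regular library reached an ischemic one. Quantile normalization, which forces all libraries to 1 distribution, left smaller rises, between 0.17 with MK25 and 0.83 without vehicle.

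VIM-AS1, the noncoding gene that overlaps the start of VIM, was measured with at most 195 reads. It rose by 1.28 (SE 0.25) on the log2 scale without vehicle and by 0.92 (SE 0.26) with DMSO. VIM had at least 53351 reads in each library. Whether reads of VIM entered the values of VIM-AS1 was not tested, so its rise cannot be taken as independent of VIM.

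FN1, the glycoprotein that binds integrins in the matrix, rose in all 4 comparisons. It was 12.09 and 12.34 in regular and 13.09 and 13.19 in ischemic cells without vehicle, and 12.04 and 12.15 against 12.93 and 12.97 with DMSO. The log2 fold changes were 0.92 (95% interval 0.70 to 1.15) and 0.85 (0.66 to 1.04), folds of 1.89 and 1.81, which are under 2. With VX745 it was 11.80 and 12.08 in regular and 12.76 and 12.68 in ischemic cells (0.78), and with MK25 11.82 and 12.02 against 12.77 and 12.72 (0.83, SE 0.09 each). The ischemic and regular libraries did not overlap. Under quantile normalization the rise was between 0.22 with DMSO and 0.34 without vehicle. ATIC, which overlaps the end of FN1, fell by 0.76 (SE 0.07) and 0.32 (SE 0.05) on the log2 scale, with at most 6316 reads against at least 75875 for FN1.

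CD44 moved little. Without vehicle it was 9.67 and 9.65 in regular and 9.67 and 9.71 in ischemic cells, and the interval of the difference ran from -0.11 to 0.18. With DMSO it was 9.68 and 9.57 against 9.93 and 9.95 and with VX745 9.60 and 9.65 against 9.98 and 9.92, log2 fold changes of 0.32 (adjusted p = 8.64e-05) and 0.33 (adjusted p = 7.19e-05). With MK25 it was 9.67 and 9.73 against 9.80 and 9.74, a difference of 0.07 (-0.05 to 0.19). The direction depended on the scaling. Quantile normalization gave -0.07 with DMSO (adjusted p = 0.231) and -0.21 without vehicle (adjusted p = 0.00832), and CD44 held 0.0805% to 0.0852% of the reads in regular DMSO and 0.0882% to 0.0885% in ischemic DMSO cells. Without vehicle its share went the other way, from 0.0866% and 0.0878% in regular to 0.0792% and 0.0793% in ischemic cells.

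**Figure D3:**
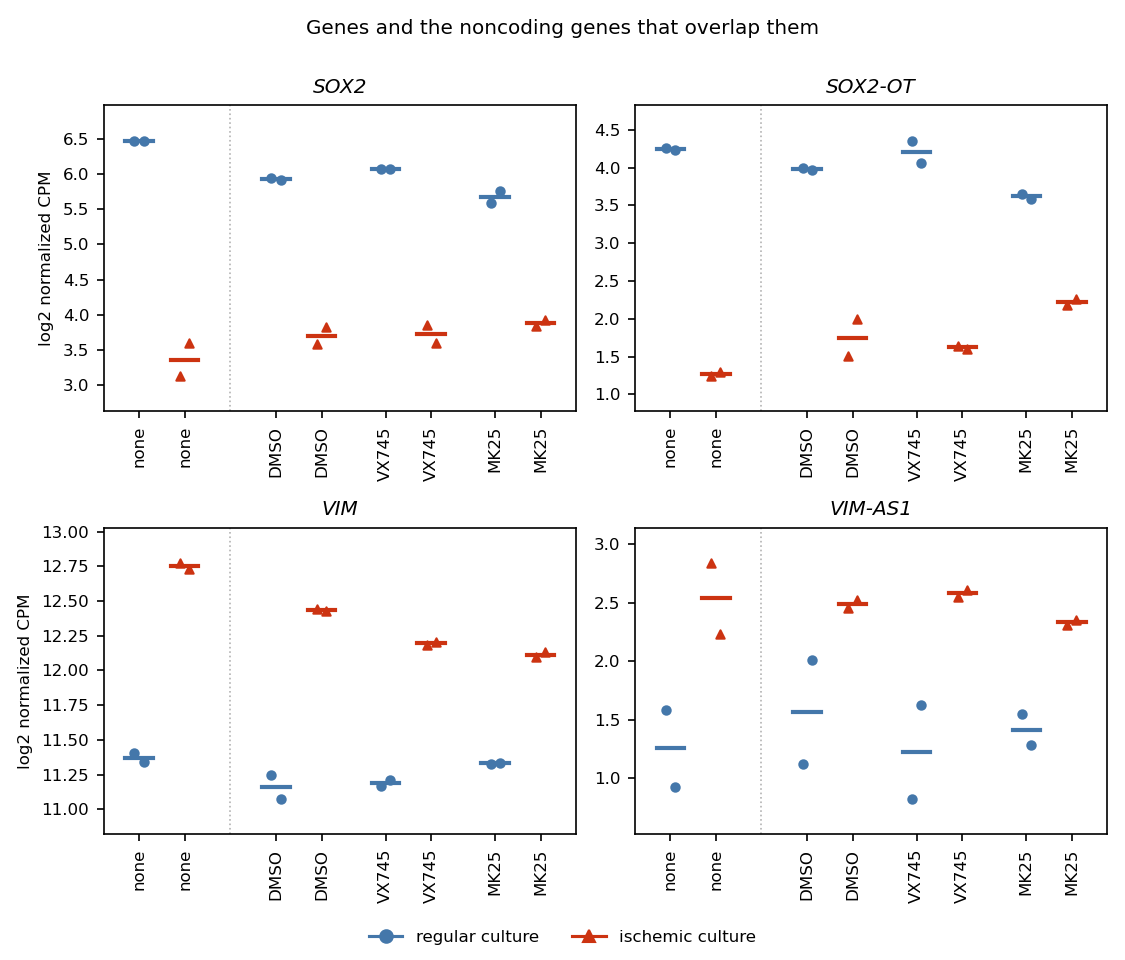
Log2 normalized CPM of SOX2 and VIM and of the noncoding genes that overlap them, SOX2-OT and VIM-AS1, in all 16 libraries, with a line at each group mean and a dotted line between the experiments. SOX2-OT falls with SOX2 and VIM-AS1 rises with VIM in ischemic culture, at far lower read numbers. The libraries do not mark strand, so reads of overlapping genes cannot be told apart.

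Taking an adjusted p under 0.05 at any fold as the call, 3 of the 9 genes were higher (VIM, FN1 and SOX9) and 4 lower (SOX2, NES, SOX4 and GFAP) in ischemic culture without vehicle, where 70.4% of all genes were called, 35.2% higher and 35.2% lower. With DMSO 4 were higher (also CD44) and 4 lower (SOX11 in place of GFAP), against 69.6% of all genes (34.4% higher and 35.2% lower). With VX745 4 were higher and 3 lower (66.6% of all genes, 34.0% higher and 32.6% lower), and with MK25 3 were higher and 4 lower (67.2% of all genes, 33.5% higher and 33.7% lower). A share of 7 or 8 in 9 is near this background, so the calls alone do not set the genes apart. At a fold of at least 2, 5 of 9 passed without vehicle (VIM and SOX9 up, SOX2, NES and SOX4 down) and 4 with DMSO, against 20.4% and 17.1% of all genes. The groups did not overlap for 8, 8, 9 and 8 of the 9 genes in the 4 comparisons, against 85.2%, 83.3%, 85.0% and 82.5% of all genes.

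The first experiment and the DMSO arm of the second share no library, and the genes that passed in both moved the same way. SOX2, NES and SOX4 fell and VIM, FN1 and SOX9 rose in each. Whether the sizes differ between the experiments was not tested, since the tables were normalized separately.

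**Figure D4:**
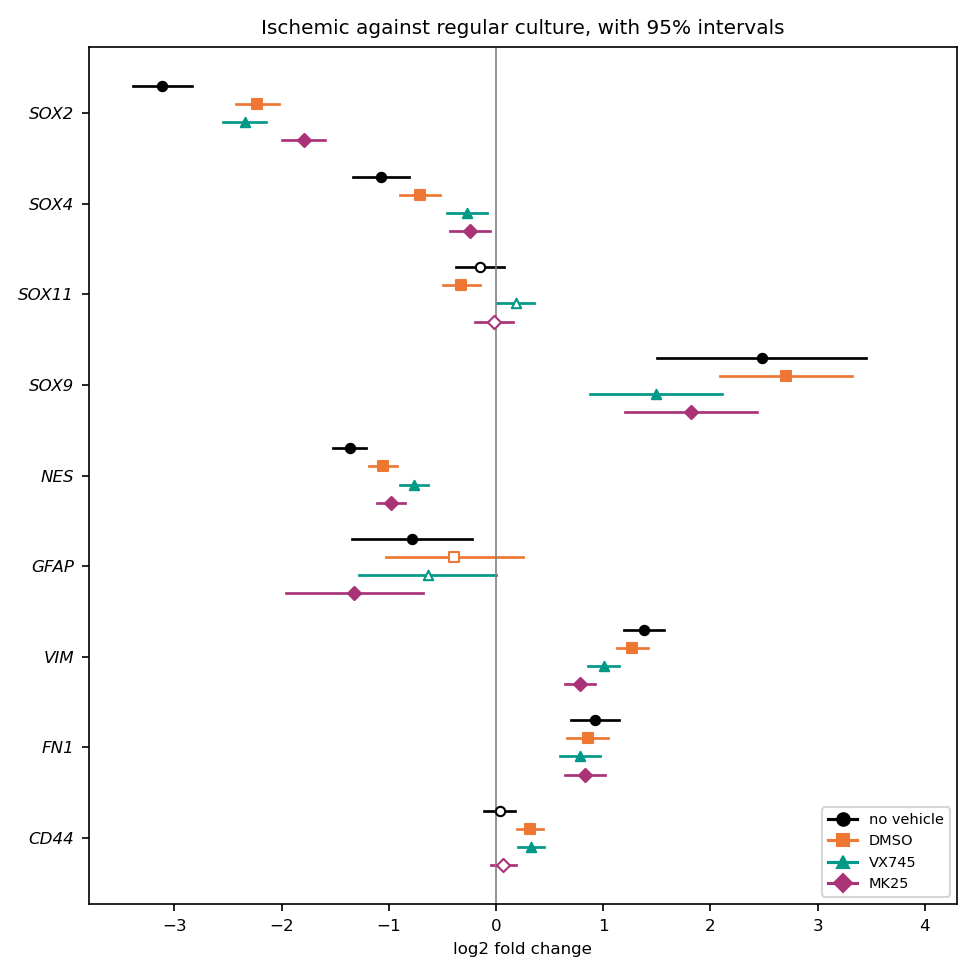
Log2 fold change of ischemic against regular culture for each gene without vehicle and with DMSO, VX745 or MK25, with 95% intervals from limma and filled symbols at an adjusted p under 0.05. SOX2 lies between -3.11 and -1.79 and VIM between 0.78 and 1.38. CD44 lies between 0.03 and 0.33 and SOX11 between -0.32 and 0.18.

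Other genes of the same programs were counted from lists written for this work, and genes named from them passed the test unless an adjusted p says otherwise. Their counts stand beside 69.6% of all genes called with DMSO (34.4% higher and 35.2% lower) and 70.4% without vehicle. All list counts and medians, here and for the inhibitors below, come from the main fits only. Quantile normalization, which left smaller rises of VIM and FN1 and turned CD44, was not examined for the lists. Of 30 further mesenchymal glioma genes, 22 were higher and 3 lower in ischemic DMSO cells and 16 and 4 without vehicle, with medians of 0.42 and 0.24 against -0.01 over all genes. GFPT2, a rate-limiting enzyme of hexosamine synthesis, rose by 2.12 on the log2 scale with DMSO, while the matrix protein genes EFEMP1 and SPP1 fell by 0.89 and 0.48. Of 16 mesenchymal transcription factors 10 were higher and 4 lower. FOSL2, an AP-1 subunit, rose by 2.14 and SNAI2 by 1.40, whereas SNAI1, which like SNAI2 is a Snail family factor, fell by 1.77 and TWIST2 by 0.43.

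Of 20 measured regulators of neural and glioma stem cells, 4 were higher and 11 lower in ischemic DMSO cells, a median of -0.43, and without vehicle 2 of 19 were higher and 12 lower, a median of -0.67. The POU factor gene POU3F2 fell by 2.45 and ID1, an inhibitor of differentiation, by 2.16, while the adhesion molecule gene L1CAM rose by 1.06 and KLF4 by 0.96. Among 7 other SOX genes with a row, 6 were lower and 1 higher in both experiments. SOX5 fell by 0.94 and SOX10 by 0.83, and SOX12, the remaining SoxC gene beside SOX4 and SOX11, rose by 1.12 with DMSO.

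Of 12 measured astrocyte genes 5 were higher and 3 lower with DMSO, a share near the 69.6% of all genes. ALDOC, a glycolytic aldolase, rose by 3.65 and the nuclear factor gene NFIX by 0.64, and S100B fell by 0.39, with GFAP at -0.39 not passing. Of 8 measured genes for other intermediate filaments, lamins and linkers, 4 were higher and 3 lower. SYNM, whose product synemin assembles with vimentin, fell by 0.87 and the lamin gene LMNB2 by 0.89, while the linker gene PLEC rose by 0.92 and KRT8 by 0.77. Of 22 measured genes for hyaluronan turnover and for partners of CD44 and fibronectin, 12 were higher and 4 lower. Syndecan 4 (SDC4) rose by 1.60 and ITGA5, the α chain of the fibronectin receptor, by 1.35, while the hyaluronidase gene HYAL2 fell by 1.62 and the sheddase gene ADAM10 by 0.19.

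The inhibitors were then compared with DMSO in ischemic cells, to ask how far p38 and MK2 inhibition moved these genes. VX745 raised SOX4, SOX11 and NES and lowered VIM (3 higher and 1 lower of 9, against 28.9% of all genes called, 14.0% higher and 14.9% lower). SOX4 went from 3.60 and 3.64 to 4.18 and 4.24, a log2 fold change of 0.59 (95% interval 0.40 to 0.78, adjusted p = 0.000143), the only change to reach a fold of 1.5, which 5.26% of all genes did. SOX11 went from 4.23 and 4.40 to 4.89 and 4.77, a log2 fold change of 0.51 (0.34 to 0.69, adjusted p = 0.000235). The VX745 libraries of both SoxC genes lay above both DMSO libraries, and the groups did not overlap for 6 of the 9 genes, against 70.1% of all genes.

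NES was 8.78 and 8.84 with DMSO and 9.07 and 9.01 with VX745, a log2 fold change of 0.23 (adjusted p = 0.0103) that lost its call without ischemic DMSO replicate 1 (adjusted p = 0.0997) or ischemic VX745 replicate 1 (0.103). VIM was 12.44 and 12.43 with DMSO and 12.19 and 12.21 with VX745, a log2 fold change of -0.24 (adjusted p = 0.0129). It lost its call without any 1 of these 4 libraries (adjusted p from 0.0657 to 0.0965), and quantile normalization put its difference at 0. FN1 was 0.23 lower and did not pass (adjusted p = 0.0671), though it passed when only these groups were fitted (0.00207), with voom on the reads (0.0415) and without either library of regular VX745 or of regular MK25 (0.0302 to 0.0478). Quantile normalization put the FN1 difference at 0 also. It gives equal ranks equal values. FN1 ranked 2 in every ischemic DMSO and ischemic VX745 library, and VIM ranked 8 and 9 with DMSO and 9 and 8 with VX745. A difference of 0 thus followed from the ranks and cannot measure how these genes changed. SOX2 differed by 0.02 (-0.18 to 0.22), CD44 by 0.01 (-0.11 to 0.13), SOX9 by -0.40 (-1.02 to 0.21) and GFAP by 0.24 (-0.40 to 0.88). For CD44, quantile normalization gave 0.26 (adjusted p = 0.00251).

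MK25 raised SOX4 and lowered VIM, CD44 and NES in ischemic cells (1 higher and 3 lower of 9, against 41.7% of all genes, 19.8% higher and 22.0% lower). SOX4 was 3.93 and 4.09 with MK25 against 3.60 and 3.64 with DMSO, a log2 fold change of 0.39 (0.20 to 0.57, adjusted p = 0.00228). VIM was 12.10 and 12.13 against 12.44 and 12.43, a log2 fold change of -0.32 (-0.46 to -0.18, adjusted p = 0.00107). Under quantile normalization the VIM difference was -0.08 (adjusted p = 0.414). None of these changes reached a fold of 1.5, which 9.67% of all genes did, and the groups did not overlap for 7 of the 9, against 72.2% of all genes.

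CD44 was 9.80 and 9.74 with MK25 against 9.93 and 9.95 with DMSO, a log2 fold change of -0.18 (adjusted p = 0.0199), and NES was 8.60 and 8.67 against 8.78 and 8.84, a log2 fold change of -0.17 (adjusted p = 0.034). Neither pair of groups overlapped. Quantile normalization turned both, to 0.06 (adjusted p = 0.436) for CD44 and 0.03 (0.731) for NES. CD44 lost its call without ischemic DMSO replicate 1 (0.0756), ischemic DMSO replicate 2 (0.106) or ischemic MK25 replicate 2 (0.138), and NES without any 1 of the 4 libraries (0.06 to 0.195) and with no trend of the variance (0.089). SOX11 was 0.17 higher (adjusted p = 0.106), SOX2 0.18 higher (adjusted p = 0.143, or 0.0399 without ischemic DMSO replicate 2) and FN1 0.20 lower (adjusted p = 0.0804). FN1 passed when only these groups were fitted (0.00317) and without either library of regular VX745 (0.0372 and 0.0376), while quantile normalization left a difference of -0.079 (0.362). SOX9 (0.02, -0.60 to 0.63) and GFAP (-0.37, -1.01 to 0.27) had wide intervals.

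The comparisons with VX745 and MK25 share the ischemic DMSO libraries, so their values stand side by side only. In the wider lists, to be read beside 28.9% of all genes called with VX745 and 41.7% with MK25, 1 of the 30 mesenchymal glioma genes was higher and 11 lower with VX745, and 2 were higher and 20 lower with MK25, with medians of -0.18 and -0.31 on the log2 scale. GFPT2 was 0.27 higher with VX745 and 0.61 lower with MK25 (adjusted p = 0.0021 and 4.2e-07). Of the 20 stem cell regulators, 4 were higher and 4 lower with VX745 and 8 higher and 5 lower with MK25. POU3F2 rose by 1.24 with VX745 and by 1.11 with MK25, and ID1 rose by 0.76 with MK25 and differed by 0.16 with VX745 (adjusted p = 0.19). SYNM rose by 0.56 and 0.75. Of the 7 other SOX genes 0 passed with VX745 and 2 were higher with MK25.

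In regular culture VX745 moved 0 of the 9 genes past the limma test, where 0.335% of all genes were called, and 1 gene (SOX9) had an unadjusted p under 0.05. With MK25 NES was lower (0 higher and 1 lower of 9, against 12.2% of all genes, 7.0% higher and 5.21% lower). NES was 9.57 and 9.66 with MK25 and 9.87 and 9.86 with DMSO, a log2 fold change of -0.25 (-0.39 to -0.12, adjusted p = 0.0134). It lost its call without regular DMSO replicate 2 (adjusted p = 0.0571) or regular MK25 replicate 1 (0.102), when only these groups were fitted (0.111) and with no trend of the variance (0.0757). SOX2 was 0.25 lower with MK25 (adjusted p = 0.0898, or 0.0442 with voom on the reads), and VIM was 0.17 higher (adjusted p = 0.109, or 0.0183 without regular DMSO replicate 1 and 0.0393 with quantile normalization).

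The log2 difference of SOX9 in regular culture was 0.82 with VX745 (adjusted p = 0.208) and 0.90 with MK25 (adjusted p = 0.0525), and neither passed. The MK25 difference passed without regular DMSO replicate 2 (0.0214), the library that was the higher of the DMSO pair, without ischemic DMSO replicate 1 (0.0498) and when genes averaging under 1 CPM were left out (0.0469).

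**Figure D5:**
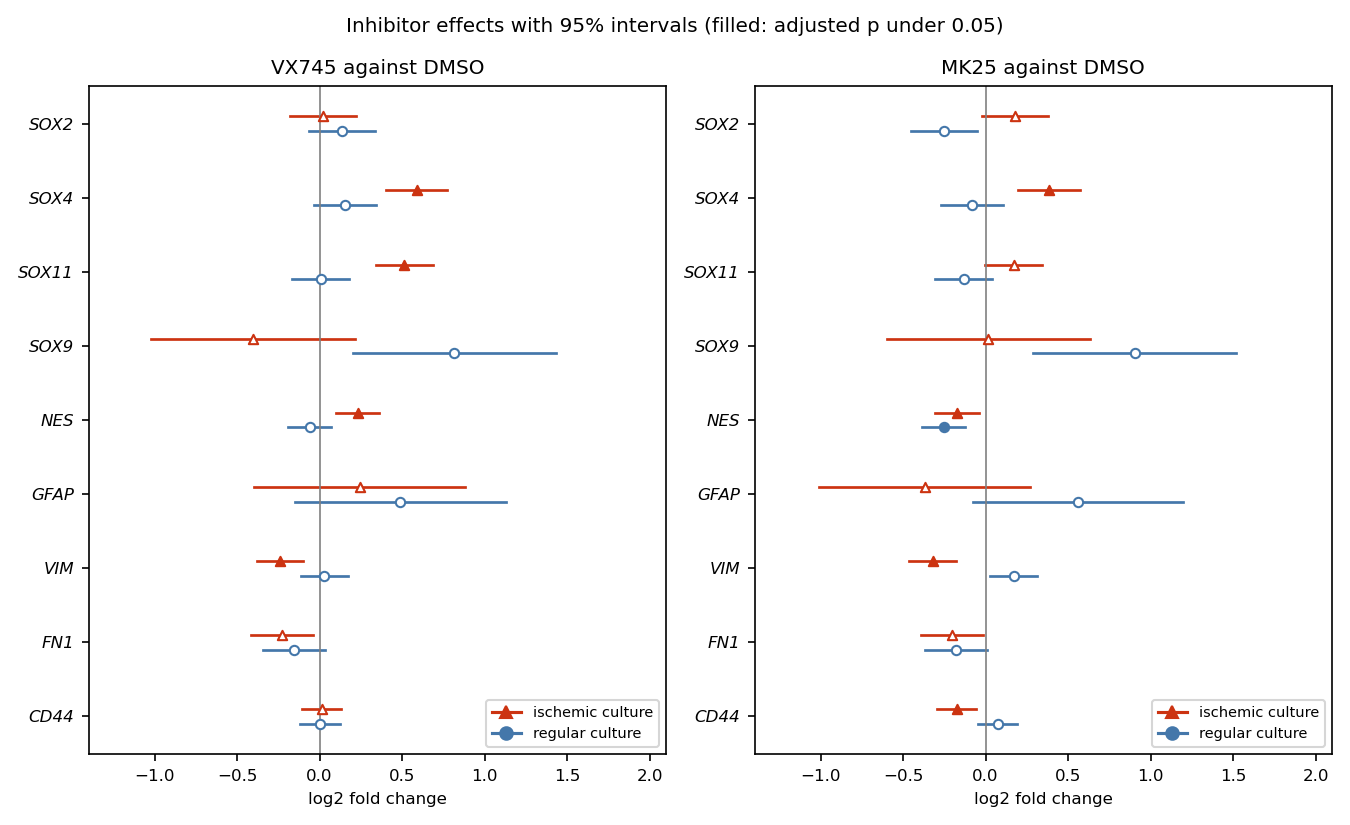
Log2 fold change of VX745 (left) and MK25 (right) against DMSO for each gene in ischemic and regular culture, with 95% intervals from limma and filled symbols at an adjusted p under 0.05. In ischemic culture SOX4 lies above 0 with both inhibitors and VIM below 0, and in regular culture only NES with MK25 is filled.

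Whether an inhibitor acted differently in the cultures was tested as an interaction, the log2 fold change in ischemic minus that in regular cells. For VX745, SOX11 (0.51, SE 0.12, adjusted p = 0.0106), SOX4 (0.43, SE 0.13, adjusted p = 0.033) and NES (0.29, SE 0.09, adjusted p = 0.0405) passed, 3 of 9, all higher, against 11.8% of all genes (5.78% higher and 6.0% lower). For MK25, VIM (-0.49, SE 0.09, adjusted p = 0.00133), SOX4 (0.47, SE 0.13, adjusted p = 0.0116), SOX2 (0.43, SE 0.13, adjusted p = 0.0258) and CD44 (-0.25, SE 0.08, adjusted p = 0.0314) passed, 2 higher and 2 lower of 9, against 24.4% of all genes (10.5% higher and 13.9% lower). SOX2 was thus 0.18 higher with MK25 in ischemic and 0.25 lower in regular cells, neither of which passed alone. SOX2-OT had a larger interaction with MK25, of 0.83 (SE 0.21, adjusted p = 0.00787), and rose by 0.47 in ischemic cells (adjusted p = 0.0162). FN1 had small interactions, -0.07 with VX745 (-0.34 to 0.20) and -0.02 with MK25 (-0.29 to 0.24).

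The likeness of patterns was described over the 12 libraries of the second experiment among the 10053 genes that averaged 3 or more on the log2 scale. These libraries share 1 large contrast between the cultures, which alone gives high correlations. SOX2 was nearest to STX6 (Pearson r = 0.996), CNP and VAX1 (0.994 each), and NES to TNFRSF21 (0.993). VIM was nearest to GARS1 (0.999) and SARS1 (0.998), which encode cytosolic tRNA synthetases, and to XPOT (0.998), which encodes the export receptor of tRNA. FN1 was nearest to ATXN2 (0.993), CD44 to MLPH (0.974), SOX4 to STOX2 (0.980) and SOX11 to PLEKHG3 (0.963). Among the members, SOX2 and VIM had r = -0.982 and SOX2 and NES 0.952, while SOX11 and CD44 had -0.048. SOX9 and GFAP were under the minimum level and were left out.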

How the data were processed

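RNA of LN229 cells was sequenced as poly-A selected paired-end libraries. The authors trimmed the reads and aligned them to GRCh38 with HISAT2 in Galaxy, and used edgeR for normalization (submitters' processing notes and methods). The counting program is not given in the sources used here. They deposited log2 normalized CPM per gene and library in a table for each experiment. These log2 values, deposited by the authors, were used without a further pseudocount. Entrez identifiers were matched to symbols for 99.4% and 99.3% of genes. Whole reads were recovered for 100% of values within 0.05 of a whole number. Intervals on reads cover counting error only.

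The members, lists and tests were chosen with earlier results of these data known. Tests were limma fits (version 3.58.1, R 4.3.3) with 1 mean per group and a trend of the variance, two-sided, with Benjamini-Hochberg adjustment over all genes, in 10 comparisons. The authors tested with edgeR, which takes counts and was not used here. The fits of ischemia without vehicle and with DMSO were tested on simulated data, with true changes of 1 or 2 on the log2 scale. The inhibitor comparisons, the interactions, smaller changes and changes of low genes were not simulated. Levels between genes used GENCODE release 44 transcript lengths. From each list, the genes named are up to 2 with the largest rise and up to 2 with the largest fall in ischemic DMSO cells among those called that averaged 3 or more on the log2 scale. Some genes of the lists are not reported here. The 10 members are all named, and the nearest genes by Pearson r are given for members at that level. ATIC, DNAAF19, SOX2-OT and VIM-AS1 were named because they overlap a member. Alternatives were median centring, quantile normalization, no variance trend, leaving out genes averaging under 1 CPM, a replicate block, a fit of the compared groups alone, voom on the recovered reads, other transcript lengths and each library left out. The MANE Select length was added after seeing the data. Figures used Python 3.11.15 and matplotlib 3.10.9.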

Additional observations from a re-analysis of the deposited data

Results flagged for a closer look

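Results that differed between the cultures by a limma test of the difference itself, given as the inhibitor effect in ischemic minus that in regular cells on the log2 scale, were 3 for VX745 and 4 for MK25. With 2 libraries per group no check for a single distant library was made.

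For VX745 these were SOX11 (0.51), SOX4 (0.43) and NES (0.29). SOX11 lost its call without regular VX745 replicate 1 (adjusted p = 0.0529), ischemic DMSO replicate 1 (0.0611) or ischemic VX745 replicate 1 (0.0691). SOX4 lost it without regular DMSO replicate 2 or any 1 library of regular VX745, ischemic DMSO and ischemic VX745 (0.0601 to 0.118). NES lost it without regular VX745 replicate 1 or any 1 library of regular DMSO, ischemic DMSO, ischemic VX745 and ischemic MK25 (0.0521 to 0.163). SOX4 also lost it with quantile normalization (0.102) and with no trend of the variance (0.0633), and NES with no trend (0.125) and with median centring (0.0554).

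For MK25 they were VIM (-0.49), SOX4 (0.47), SOX2 (0.43) and CD44 (-0.25). VIM kept its call without each of the 12 libraries in turn. SOX4 lost it without regular MK25 replicate 1 (0.0613) or ischemic MK25 replicate 2 (0.0584). SOX2 lost it without either library of regular DMSO, regular MK25 replicate 1, ischemic DMSO replicate 1 or ischemic MK25 replicate 2 (0.0561 to 0.134). CD44 lost it without regular DMSO replicate 2, regular MK25 replicate 2, ischemic MK25 replicate 2 or any 1 library of ischemic DMSO and ischemic VX745 (0.0507 to 0.114). SOX2 also lost it with quantile normalization (0.0688) and with no trend of the variance (0.0845), and CD44 with no trend (0.0695) and when only these groups were fitted (0.0502). Quantile normalization turned CD44 (0.043). Without 1 library, SOX9 (VX745 -1.61, adjusted p = 0.0291, and MK25 -1.27, 0.0381, both without regular DMSO replicate 2), VIM (VX745 -0.36, 0.0122, without regular DMSO replicate 1), GFAP (MK25 -1.31, 0.0451) and SOX11 (MK25 0.39, 0.0381, both without ischemic DMSO replicate 2) also passed.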

How the results depend on the processing

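Falls of SOX2 and NES and rises of VIM, FN1 and SOX9 in ischemia kept their direction and their call under every alternative that tested them in all 4 comparisons. SOX9 averaged under 1 CPM in the first experiment and was not tested under that filter. Of the 45 member results that passed, quantile normalization turned 4 and ended 4, the fit without a variance trend ended 6, the fit of only the groups compared ended 3 and median centring ended 1, while voom and the replicate block ended 0. Since quantile normalization gives equal ranks equal values, it can hide changes of top-ranked genes such as VIM and FN1. The number of members called moved by over 1.5 times in these settings. For MK25 in ischemic cells it was 1 with quantile normalization, in place of 4. For MK25 in regular cells it was 1, and became 2 with quantile normalization, without genes averaging under 1 CPM and with voom on the reads, and 0 with no variance trend and with only the groups compared. Without a variance trend it was 1 for VX745 and 2 for MK25 in the interactions, in place of 3 and 4. The causes were not tested.

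With 1 library left out at a time, the number called in ischemia ran from 6 to 8 without vehicle, was 8 with DMSO, and ran from 6 to 8 with VX745 and from 6 to 7 with MK25. In ischemic cells it ran from 2 to 5 for each inhibitor, and in regular cells it was 0 for VX745 and ran from 0 to 2 for MK25. The interactions ran from 0 to 3 for VX745 and from 1 to 5 for MK25. A lone library left in a group is assumed to vary like the other groups.

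Values that changed sign included 4 that had passed in the main fits, all turned by quantile normalization. They were CD44 in ischemia with DMSO, CD44 and NES with MK25 in ischemic cells, and CD44 in the MK25 interaction. The other values that changed sign had not passed in the main fits. Quantile normalization turned CD44 in ischemia (-0.21 without vehicle, -0.072 with DMSO and -0.029 with MK25), CD44 with MK25 in ischemic cells (0.055), with VX745 in regular cells (-0.030) and in the MK25 interaction (0.043), and NES (0.031) and SOX9 (-0.18) with MK25 in ischemic cells. It also turned SOX2 (-0.079) and GFAP (-0.0026) with VX745 in ischemic cells, VIM with VX745 in regular cells (-0.059) and in the VX745 interaction (0.059), and FN1 in the VX745 (0.081) and MK25 (0.083) interactions. Median centring turned CD44 in ischemia without vehicle (-0.0073), with VX745 in ischemic cells (-0.0056) and in the VX745 interaction (-0.015), and voom on the reads turned SOX9 with MK25 in ischemic cells (-0.0061).

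With each library left out, signs changed for SOX11 in ischemia with MK25 (-0.062 to 0.024). With VX745 in ischemic cells they changed for CD44 (-0.019 to 0.043), SOX2 (-0.10 to 0.14) and GFAP (-0.14 to 0.62), and with MK25 there for SOX9 (-0.28 to 0.32) and GFAP (-0.75 to 0.011). In regular cells they changed with VX745 for NES (-0.15 to 0.030), VIM (-0.056 to 0.12), CD44 (-0.049 to 0.056) and SOX11 (-0.050 to 0.065), and with MK25 for SOX4 (-0.18 to 0.013). In the VX745 interaction they changed for CD44 (-0.044 to 0.061), FN1 (-0.21 to 0.065), SOX2 (-0.24 to 0.0061) and GFAP (-0.63 to 0.13), and in the MK25 interaction for FN1 (-0.12 to 0.076).

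The labels do not say whether the replicate numbers pair the samples, and the main fits did not pair them. Same-numbered libraries deviated together with r from -0.266 to 0.325 over 15 pairs of groups in the second experiment. In the first, r was 0.271 for the only pair. These values cannot decide whether the samples were paired. With the replicate block 1 call was gained, FN1 with VX745 in ischemic cells (-0.23, adjusted p = 0.0449), and 0 were lost. In regular DMSO cells, 36 of 36 pairs of members kept their order of level with MANE Select in place of the longest transcripts, and 33 with the shortest. At 21 to 55 reads for GFAP and 2 to 149 for SOX9, differences of these genes rest on few reads.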
